A study of Mus musculus with 54 samples.

Results

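N4BP1 binds RNA, dampens NF-kB signalling in macrophages and is a target of the protease caspase-8, and the series title places the study on that axis. Here cells lacking N4bp1 (KO) were compared with wild-type (WT) cells after 8 h with Pam3, the lipopeptide Pam3CSK4 that activates Toll-like receptor 2 together with its partner TLR1. The cells were macrophages grown from mouse marrow with the growth factor M-CSF (BMDMs), and RNA sequencing measured their gene expression. Each genotype gave 3 libraries at this time, 6 of the 54 libraries in the series, and all 6 were chosen by the genotype, ligand and time in their labels. The other 48 libraries hold the same genotypes untreated, at 2, 4 and 6 h of Pam3, and at 2, 4, 6 and 8 h of R837, a ligand of TLR7. The labels describe the WT mice as C57BL/6N and the KO only as N4bp1 KO, so neither the strain of the KO mice nor the deleted part of the gene is known from them. Both groups had the same M-CSF culture and the same exposure, and the labels leave out the dose of Pam3.

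TLR2 signals through the adaptor MyD88 and the IkB kinases, which release NF-kB from its inhibitors. NF-kB then switches on cytokines, chemokines and enzymes of inflammation together with its own inhibitors, among them IkB-alpha and A20, which form a feedback loop. In macrophages such stimulation also lowers genes of the resting and scavenging state. Proteins with NYN or CCCH-type endonuclease domains, N4BP1 among them, are known as limits on inflammatory output.

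The 6 libraries held 24021262 to 38467110 counts. KO replicate 3 stood apart: 12263 genes had a count there, and 16097 to 18039 genes in each of the remaining 53 libraries. Of the genes at 1 to 2 counts-per-million (CPM) in the other 2 KO libraries, 33.4% had no count in KO replicate 3, against 1.35% of those at 5 to 10 CPM and none of the 4128 genes at 10 to 50 CPM. KO replicate 2 also stood apart from both other KO libraries, with a chi-square statistic per degree of freedom of 85.2 and 89.6, against 46.2 between KO replicates 1 and 3 and 18.8 to 40.6 between WT libraries. Transcripts from chromosome Y were at 0.386, 207.8 and 65.6 CPM in WT replicates 1 to 3 and at most 0.712 CPM in the KO libraries, while Xist, which female cells express, was at 100.5, 24.3 and 99.4 CPM in the WT libraries and 95.4 to 144 CPM in the KO libraries. WT replicates 2 and 3 thus held both kinds of transcript, and n = 3 below counts libraries and not mice. WT replicate 1 had values like those of the KO libraries. The part of sex in the differences below was not tested.

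The targeted gene, N4bp1 (ENSMUSG00000031652, on GRCm38 chromosome 8 from 86808160 to 86885258, minus strand) was at 267, 310.1 and 289.9 CPM in WT replicates 1, 2 and 3 and at 177, 146 and 182 CPM in KO replicates 1, 2 and 3, and values below keep this order of replicates. Every KO library lay under every WT library. The log2 difference (KO minus WT, as throughout) was -0.78 ± 0.10 (SE; edgeR adjusted p = 9.37e-08). Counts over the whole gene do not show whether reads were lost from a deleted part, nor whether protein was made.

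Across all genes the KO libraries had more RNA for inflammatory cytokines, neutrophil-attracting chemokines, prostaglandin enzymes and NRF2 targets, and less for genes of resting macrophages and of cholesterol synthesis. Of 14970 genes tested, 1714 were higher in KO (11.4%) and 1863 lower (12.4%) at an adjusted p under 0.05 with edgeR's quasi-likelihood test, in which all 54 libraries share 1 estimate of the spread. Among them 436 were higher and 630 lower by at least 1 on the log2 scale. KO replicate 3 had no count for 3245 of the genes tested, among them 387 called lower and 9 called higher. Of the lower genes 353 had a mean under 2 CPM in both groups. With the spread estimated from the 6 libraries alone, 226 genes were higher and 225 lower of 12756 tested (1.77% and 1.76%), each also called in the same direction with all 54. Leaving out KO replicate 3 gave 1221 higher (7.95%) and 1379 lower genes (8.98%), and 947 of the 1714 and 1135 of the 1863 kept their call, with no call in the opposite direction. Leaving out WT replicate 3 gave 1055 higher and 1319 lower genes, the fewest of any library left out. The genes described below as higher or lower passed in each of the alternative fits that tested them unless an exception is given with them.

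**Figure D1:**
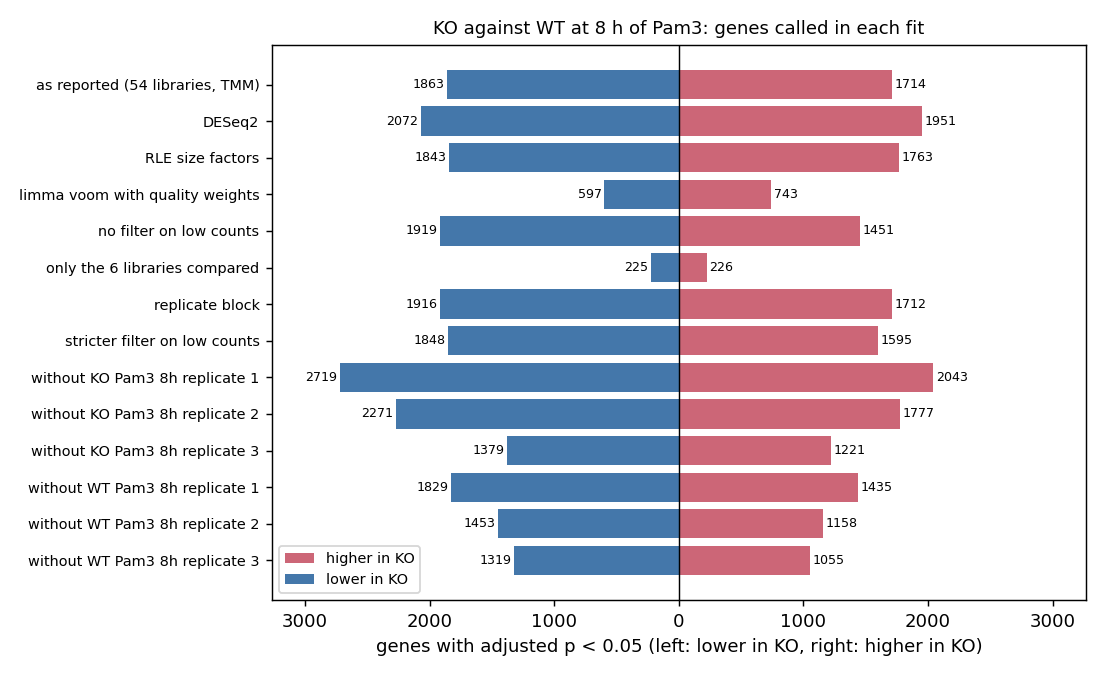
Number of genes with an adjusted p under 0.05 for KO against WT at 8 h of Pam3 (horizontal axis) under each fit (vertical axis), with genes higher in KO to the right and lower to the left. The fit reported here called 1714 and 1863 genes, the fit of the 6 libraries alone 226 and 225, and limma's voom with quality weights 743 and 597.

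The chemokines that draw neutrophils gave the smallest p-value of the comparison. Of 6 tested members 5 were higher and none lower, with a median log2 difference of 1.72 against -0.05 over all genes tested, and in the fit of the 6 libraries alone 3 were higher. The fifth of the higher members is Pf4, which is also a marker of megakaryocytes and whose call was lost without KO replicate 2 (edgeR adjusted p = 0.15), with voom (0.0794) and in the fit of the 6 libraries alone (0.221). Cxcl3 (chromosome 5, 90786103 to 90789600, plus strand) was at 201, 153 and 185 CPM in WT and 1972, 1695 and 1683 CPM in KO libraries, which is a log2 difference of 3.31 ± 0.19 (edgeR adjusted p = 2.3e-16). Every KO library lay above every WT library. Cxcl1 was at 420.3, 373 and 343 CPM in WT and 1809.7, 1777 and 1428 CPM in KO libraries, with a log2 difference of 2.14 ± 0.25 (edgeR adjusted p = 2.22e-08). Cxcl2, the third of these neighbouring genes on chromosome 5, was at 879.8, 978 and 865 CPM against 3459.8, 3184 and 2845 CPM, with a difference of 1.80 ± 0.23 on the log2 scale (edgeR adjusted p = 1.2e-07). The WT and KO values of these 3 genes did not overlap, and KO replicate 3 was the lowest KO library for each. Cxcl5 was also higher, with a log2 difference of 1.65 ± 0.44 (edgeR adjusted p = 0.00535), but did not pass in the fit of the 6 libraries alone (edgeR adjusted p = 0.223, within a range of 0.000123 to 0.223 over the alternatives).

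Promoter windows of 3 chemokine genes and of Il6 are shown because these genes moved together and are classical NF-kB targets. They are RefSeq windows on GRCm38.p6, from 250 bases before the gene's start to 50 after it, on the plus strand of chromosome 5, and capitals mark matches to the NF-kB consensus on either strand. Cxcl1 is at chr5:90890995-90891294, Cxcl2 at chr5:90903649-90903948, Cxcl3 at chr5:90785851-90786150 and Il6 at chr5:30012864-30013163.
Cxcl1: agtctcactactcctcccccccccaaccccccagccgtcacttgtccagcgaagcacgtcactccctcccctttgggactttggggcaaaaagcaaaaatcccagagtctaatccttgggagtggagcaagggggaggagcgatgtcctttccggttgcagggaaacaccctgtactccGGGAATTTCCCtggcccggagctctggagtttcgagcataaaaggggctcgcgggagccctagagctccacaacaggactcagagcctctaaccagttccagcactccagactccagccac
Cxcl2: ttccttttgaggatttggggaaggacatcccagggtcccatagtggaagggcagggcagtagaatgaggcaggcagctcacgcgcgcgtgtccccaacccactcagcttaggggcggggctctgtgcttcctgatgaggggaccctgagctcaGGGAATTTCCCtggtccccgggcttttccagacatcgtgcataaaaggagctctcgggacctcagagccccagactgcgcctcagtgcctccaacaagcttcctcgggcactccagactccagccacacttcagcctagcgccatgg
Cxcl3: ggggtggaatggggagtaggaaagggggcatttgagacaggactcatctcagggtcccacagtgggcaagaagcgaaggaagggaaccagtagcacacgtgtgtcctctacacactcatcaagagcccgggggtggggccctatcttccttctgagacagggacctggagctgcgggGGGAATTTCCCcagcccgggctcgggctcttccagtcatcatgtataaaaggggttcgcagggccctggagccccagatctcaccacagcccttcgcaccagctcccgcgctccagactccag
Il6: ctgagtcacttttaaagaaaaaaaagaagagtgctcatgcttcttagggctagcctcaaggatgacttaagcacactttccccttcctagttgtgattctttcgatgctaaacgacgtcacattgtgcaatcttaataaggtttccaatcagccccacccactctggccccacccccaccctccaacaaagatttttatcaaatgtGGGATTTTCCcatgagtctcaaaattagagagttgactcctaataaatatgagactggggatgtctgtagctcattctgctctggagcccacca
The Cxcl1, Cxcl2 and Cxcl3 windows hold the same 11 bases, GGGAATTTCCC, in which a match on each strand overlaps. The matches begin 71, 97 and 73 bases before the start of Cxcl1, Cxcl2 and Cxcl3, and 44 bases before that of Il6, whose match reads GGGATTTTCC. Of 32851 windows of this length in RefSeq, 1480 hold a match (4.51%). A match of letters is a description and not a measured binding site. The table held windows for 68.5% of the genes tested, so shares among higher and lower genes were not compared.

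The cytokines moved the same way. Of 20 tested members of the list 11 were higher and none lower, with a median log2 difference of 1.19, and 7 were higher in the fit of the 6 libraries alone. Il6 was at 35.5, 56.96 and 42.2 CPM in WT libraries and 515, 301 and 304 CPM in KO libraries, which is a log2 difference of 3.06 ± 0.30 (edgeR adjusted p = 1.33e-09). KO replicate 1 was the highest, and the groups did not overlap. Il1a, encoding interleukin-1 alpha, rose from 122, 139 and 140 CPM in WT to 1094, 395 and 696 CPM in KO libraries, which is a difference of 2.45 ± 0.31 on the log2 scale (edgeR adjusted p = 1.5e-07). Il1b, encoding interleukin-1 beta, was far more abundant, at 1982, 2424 and 1888 CPM in WT and 8478, 5047 and 5783 CPM in KO libraries, and differed by 1.62 ± 0.28 on the log2 scale (edgeR adjusted p = 4.28e-05). Both interleukin-1 genes were highest in KO replicate 1 and lowest among the KO libraries in KO replicate 2.

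Il12a and Il12b encode the p35 and p40 chains that together form interleukin-12. Il12a was low in both genotypes, at 1.70, 1.15 and 1.28 CPM in WT and 14.7, 8.41 and 13.5 CPM in KO libraries, with a log2 difference of 3.14 ± 0.39 (edgeR adjusted p = 3.58e-08). Il12b was at 18.5, 11.7 and 12.2 CPM in WT and 193, 57.7 and 83.3 CPM in KO libraries. It differed by 2.98 ± 0.41 on the log2 scale (edgeR adjusted p = 7.88e-07). KO libraries ranged more widely than WT libraries for Il12b, from 57.7 CPM in replicate 2 to 193 CPM in replicate 1, yet all lay above the WT libraries. Tnf, encoding tumour necrosis factor, was at 1240.2, 1645 and 1378 CPM in WT and 3525, 2713 and 3027 CPM in KO libraries, a smaller log2 difference of 1.12 ± 0.21 (edgeR adjusted p = 0.000146). Inhba, encoding the activin A subunit, differed by 2.24 ± 0.28 (edgeR adjusted p = 5.43e-08), from 11.2, 8.73 and 12.5 CPM to 56.8, 33.99 and 63.6 CPM. Csf3 encodes G-CSF, the growth factor of neutrophils. It was at 15.1, 19.6 and 21.2 CPM in WT and 131, 77.8 and 66.4 CPM in KO libraries, with a log2 difference of 2.29 ± 0.32 (edgeR adjusted p = 1.79e-06). Il10, encoding an anti-inflammatory cytokine, was at 9.07, 17.5 and 12.5 CPM in WT and 11.1, 14.8 and 11.99 CPM in KO libraries, with overlapping groups and a log2 difference of -0.04 ± 0.19 (edgeR adjusted p = 0.913). Il23a was barely detected, with 1 count in the 3 WT libraries together and 28 in the KO libraries, and none of these in KO replicate 3. Csf2, encoding GM-CSF, had 18 counts in WT and 89 in KO libraries in all.

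CC chemokines did not share 1 direction, with 3 higher and 4 lower of 12 tested and a median log2 difference of 0.24. Ccl3, an attractant of monocytes and lymphocytes, was at 2321, 2406 and 2324 CPM in WT and 5115, 4255 and 4566 CPM in KO libraries, with a log2 difference of 0.98 ± 0.12 (edgeR adjusted p = 4.71e-08). Ccl5 was higher as well, by 1.16 ± 0.22 (edgeR adjusted p = 0.000169), at 315, 319.9 and 288 CPM in WT and 889, 619 and 560.4 CPM in KO libraries. Ccl6 was lower, by -0.76 ± 0.15 (edgeR adjusted p = 0.000146), at 787, 601 and 602 CPM in WT and 378, 460.2 and 339 CPM in KO libraries. Ccl4, the close relative of Ccl3, was at 1070.5, 1181 and 1031 CPM against 1231, 1415 and 1313 CPM, a log2 difference of 0.27 ± 0.14 that did not pass (edgeR adjusted p = 0.155).

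**Figure D2:**
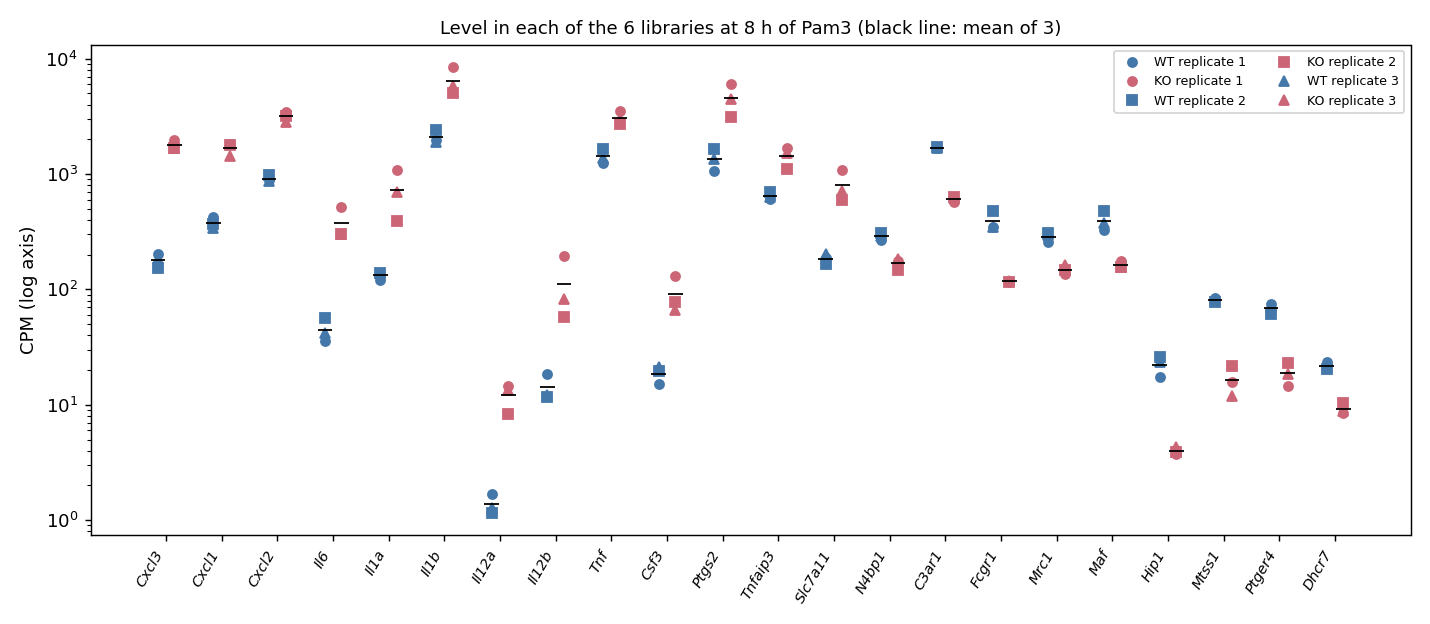
CPM (vertical log axis) of a selection of the named genes in each of the 6 libraries, with WT in blue, KO in red, the symbol giving the replicate and the black line the mean of 3. The KO libraries lie above the WT libraries from Cxcl3 to Slc7a11 and below them from N4bp1 to Dhcr7, with no overlap for any gene shown.

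Genes that hold NF-kB in check were higher in part. Of 15 tested inhibitors and feedback genes 8 were higher and none lower, with a median log2 difference of 0.34, and 4 were higher in the fit of the 6 libraries alone. In untreated cells 4 of the 15 were already higher in KO and none lower, beside 0.514% of all genes tested that were higher there. Tnfaip3 encodes A20, an enzyme that edits ubiquitin chains and ends the signal. It was at 605, 703 and 636 CPM in WT and 1681, 1103 and 1520.5 CPM in KO libraries. Its log2 difference was 1.15 ± 0.13 (edgeR adjusted p = 6.95e-09). Traf1, an adaptor of TNF receptors, was at 195, 147 and 168 CPM in WT and 395, 399.9 and 445 CPM in KO libraries, with a log2 difference of 1.28 ± 0.14 (edgeR adjusted p = 2.09e-09). Nfkbia, encoding IkB-alpha, differed less, by 0.49 ± 0.08 (edgeR adjusted p = 8.06e-06), from 1141, 1119 and 1054 CPM to 1585, 1676 and 1380.4 CPM. Tnip1, encoding the A20 partner ABIN1, was higher by 0.51 ± 0.10 (edgeR adjusted p = 0.000129). Among the 5 NF-kB subunits Nfkb2, the p100 precursor of the non-canonical pathway, was the one that passed, with 302, 286 and 317 CPM in WT and 504, 456 and 428 CPM in KO libraries and a difference of 0.62 ± 0.12 on the log2 scale (edgeR adjusted p = 0.000186).

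The series title names the IkB kinases and caspase-8. Of 18 tested kinases and adaptors 4 were higher and 5 lower, with a median log2 difference of 0.02, and in the fit of the 6 libraries alone the adaptor Tank was the one higher and none was lower. Over all genes tested 11.4% were higher and 12.4% lower. Tank was at 199, 214 and 185 CPM in WT and 291, 271 and 284 CPM in KO libraries, with a log2 difference of 0.50 ± 0.11 (edgeR adjusted p = 0.000528). Ikbkb, encoding the catalytic kinase IKK-beta, was at 114, 113 and 118 CPM in WT and 192, 136 and 171 CPM in KO libraries, which is a log2 difference of 0.53 ± 0.11 (edgeR adjusted p = 0.000357) that missed the threshold in the fit of the 6 libraries alone (edgeR adjusted p = 0.0811, the highest of a range from 2.78e-05 over the alternatives). Ikbke, encoding the related IKK-epsilon, was lower by -0.33 ± 0.11 (edgeR adjusted p = 0.0203), a call lost without KO replicate 2 or WT replicate 1 (edgeR adjusted p = 0.0788 and 0.0623), with voom (0.123) and in the fit of the 6 libraries alone (0.136; 0.0118 to 0.136 over the alternatives). Ikbkg, encoding the regulatory subunit NEMO, was higher by 0.28 ± 0.10 (edgeR adjusted p = 0.0299), a call lost without KO replicate 1, KO replicate 3, WT replicate 1 or WT replicate 3 (edgeR adjusted p = 0.0945, 0.278, 0.197 and 0.102), with voom (0.139), with no filter (0.102) and in the fit of the 6 libraries alone (0.358; 0.00397 to 0.358 over the alternatives). Tbk1 was at 224, 251 and 222 CPM in WT and 252, 226 and 273 CPM in KO libraries and Chuk, encoding IKK-alpha, at 70.2, 80.3 and 74.6 CPM and 82.6, 77.3 and 79.5 CPM, with log2 differences of 0.11 ± 0.08 and 0.09 ± 0.08 that did not pass (edgeR adjusted p = 0.367 and 0.436). Casp8 was at 68.5, 90.1 and 70.7 CPM in WT and 81.7, 50.6 and 53.01 CPM in KO libraries, with a log2 difference of -0.31 ± 0.13 that did not pass (edgeR adjusted p = 0.0706). KO replicate 1 was the highest KO library for Casp8, and the difference passed without it at -0.58 (edgeR adjusted p = 0.000454), and without WT replicate 1 at -0.40 (edgeR adjusted p = 0.0385; 0.000454 to 0.841 over the alternatives). Of 26 genes around caspase-8, the RIP kinases and apoptosis 4 were higher and 4 lower, beside 11.4% and 12.4% of all genes tested. In the fit of the 6 libraries alone 1 was higher and none lower. Birc2, encoding the ubiquitin ligase cIAP1, was among the higher, at 33.1, 37.2 and 27.6 CPM in WT and 48.1, 52.7 and 56.99 CPM in KO libraries and a log2 difference of 0.69 ± 0.15 (edgeR adjusted p = 0.00052). Of the 7 tested genes for endonucleases related to N4BP1 or of the CCCH type, 3 were lower and none higher, beside 12.4% lower of all genes tested. N4bp1 is among the 3 and is the targeted gene itself, so its call says nothing of the family. In the fit of the 6 libraries alone N4bp1 and Zc3h12d were lower, beside 1.76% of all genes tested in that fit. Zc3h12d, encoding Regnase-4, was at 42.5, 38.6 and 41.8 CPM in WT and 18.3, 18.3 and 23.6 CPM in KO libraries. It differed by -1.03 ± 0.13 on the log2 scale (edgeR adjusted p = 6.6e-08).

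Enzymes and secreted proteins downstream of inflammation were higher. Of 17 tested genes for prostaglandin, nitric oxide and itaconate enzymes 12 were higher and 1 lower, with a median log2 difference of 0.67, and 4 were higher in the fit of the 6 libraries alone. Ptgs2, encoding the inducible cyclooxygenase COX-2, was at 1066, 1637 and 1359 CPM in WT and 6024, 3112 and 4446 CPM in KO libraries, with a log2 difference of 1.74 ± 0.22 (edgeR adjusted p = 1.42e-07). Ptges, whose product turns the COX-2 product into prostaglandin E2, was at 562, 507 and 574 CPM in WT and 1201, 1079.8 and 1179 CPM in KO libraries, with a log2 difference of 1.07 ± 0.13 (edgeR adjusted p = 4.79e-08). Slc7a2, a transporter of arginine, differed by 1.54 ± 0.25 (edgeR adjusted p = 1.71e-05). The KO libraries did not overlap with the WT libraries for any of these 3 genes, and KO replicate 2 was the lowest KO library for each. Ptger4, a receptor of prostaglandin E2, went the other way, at 75.3, 61.3 and 69.9 CPM in WT and 14.6, 22.9 and 18.6 CPM in KO libraries, which is a log2 difference of -1.88 ± 0.15 (edgeR adjusted p = 7.83e-13).

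Of 10 acute-phase and antimicrobial genes 6 were higher and none lower, 5 of them also in the fit of the 6 libraries alone. Ptx3, a long pentraxin that tags microbes, was at 1.21, 0.412 and 1.46 CPM in WT and 18.1, 9.48 and 4.58 CPM in KO libraries. Its log2 difference was 3.32 ± 0.53 (edgeR adjusted p = 1.06e-05). Lcn2, encoding the siderophore-binding lipocalin 2, was at 183, 152 and 161 CPM in WT and 453, 332 and 380.2 CPM in KO libraries, with a log2 difference of 1.23 ± 0.21 (edgeR adjusted p = 3.59e-05). Saa3, encoding serum amyloid A3, was the most abundant of the list, at 9905, 9787 and 8176 CPM in WT and 17564, 21215 and 16880 CPM in KO libraries, with a log2 difference of 1.00 ± 0.25 (edgeR adjusted p = 0.00321). Saa3 already stood higher in KO without Pam3, averaging 11.8 CPM in untreated WT and 122.4 CPM in untreated KO libraries. Its means at 8 h were 9289 and 18550 CPM, so the ratio of KO to WT was larger before Pam3. In untreated cells 1 of the 10 listed genes was called higher in KO and none lower. Hp, encoding haptoglobin, differed by 1.10 ± 0.23 and Slpi, a protease inhibitor, by 1.55 ± 0.27 (edgeR adjusted p = 0.000516 and 3.01e-05). Complement was split. Cfb, encoding factor B of the alternative pathway, was at 15.5, 9.80 and 10.3 CPM in WT and 43.1, 29.9 and 57.6 CPM in KO libraries. It differed by 1.87 ± 0.32 on the log2 scale (edgeR adjusted p = 3.01e-05). C3ar1, encoding the receptor of the C3a fragment, was at 1676, 1718 and 1666 CPM in WT and 573, 627 and 621 CPM in KO libraries, with a log2 difference of -1.47 ± 0.10 (edgeR adjusted p = 2.2e-14), and ranked second by p-value. Each KO library lay below each WT library.

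NRF2 is the transcription factor that answers oxidative stress. Of its 13 tested targets 8 were higher and none lower, with a median log2 difference of 0.58, and 5 were higher in the fit of the 6 libraries alone. Slc7a11, encoding the cystine importer that feeds glutathione synthesis, was at 186, 165 and 203 CPM in WT and 1088, 594 and 714 CPM in KO libraries, with a log2 difference of 2.11 ± 0.22 (edgeR adjusted p = 3.18e-09). Srxn1, Sqstm1 and Txnrd1, encoding sulfiredoxin, the autophagy receptor p62 and thioredoxin reductase, were higher by 0.65 ± 0.11, 0.69 ± 0.12 and 0.62 ± 0.10 (edgeR adjusted p = 2.02e-05, 4.95e-05 and 6.39e-06).

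Of 19 AP-1 and immediate-early genes, which encode transcription factors and other early response proteins, 9 were higher and 2 lower. Without KO replicate 3 the counts were 6 and 2, and in the fit of the 6 libraries alone 3 and 2. Fosl2, an AP-1 subunit, was at 52.6, 52.2 and 61.1 CPM in WT and 161, 103 and 131 CPM in KO libraries, with a log2 difference of 1.25 ± 0.20 (edgeR adjusted p = 6.57e-06). Jun, encoding its partner c-Jun, was lower, at 63.5, 70.9 and 65.8 CPM in WT and 40.4, 33.9 and 23.3 CPM in KO libraries. Its log2 difference was -1.04 ± 0.14 (edgeR adjusted p = 4.3e-07). Maff and Ier3 were higher by 1.00 ± 0.18 and 1.13 ± 0.12 (edgeR adjusted p = 6.88e-05 and 8.68e-10). Of 16 tested genes of the TNF receptor superfamily 1 was higher and 3 lower, beside 11.4% and 12.4% of all genes tested. The higher one was Cd40, the receptor through which T cells activate macrophages, at 281, 249.8 and 238 CPM in WT and 703, 725 and 644 CPM in KO libraries, with a log2 difference of 1.43 ± 0.18 (edgeR adjusted p = 9.56e-08). Mmp9, encoding gelatinase B, was higher by 1.07 ± 0.18, while Mmp8 and the membrane protease Adam8 were lower by -1.26 ± 0.22 and -1.0 ± 0.11 (edgeR adjusted p = 3.18e-05, 2.55e-05 and 6.95e-09). Hif1a, encoding the hypoxia-inducible factor, was higher by 0.88 ± 0.17, and Hk3, encoding hexokinase 3, was lower by -0.64 ± 0.07 (edgeR adjusted p = 0.000192 and 4.39e-09).

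Among the largest increases outside the lists, Slc1a2, a glutamate transporter, was at 0.529, 0.288 and 0.227 CPM in WT and 9.17, 3.54 and 15.02 CPM in KO libraries, with a log2 difference of 4.74 ± 0.62 (edgeR adjusted p = 1.2e-07). Epha4, an ephrin receptor, was at 2.53, 3.17 and 3.75 CPM in WT and 25.4, 12.6 and 20.6 CPM in KO libraries, with a log2 difference of 2.62 ± 0.38 (edgeR adjusted p = 1.19e-06). Sh2d4a, Trem3 and Susd2 were below 12 CPM in every library and higher in KO by 3.12 ± 0.40, 2.61 ± 0.40 and 2.52 ± 0.39 (edgeR adjusted p = 1.43e-07, 3.96e-06 and 3.13e-06).

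**Figure D3:**
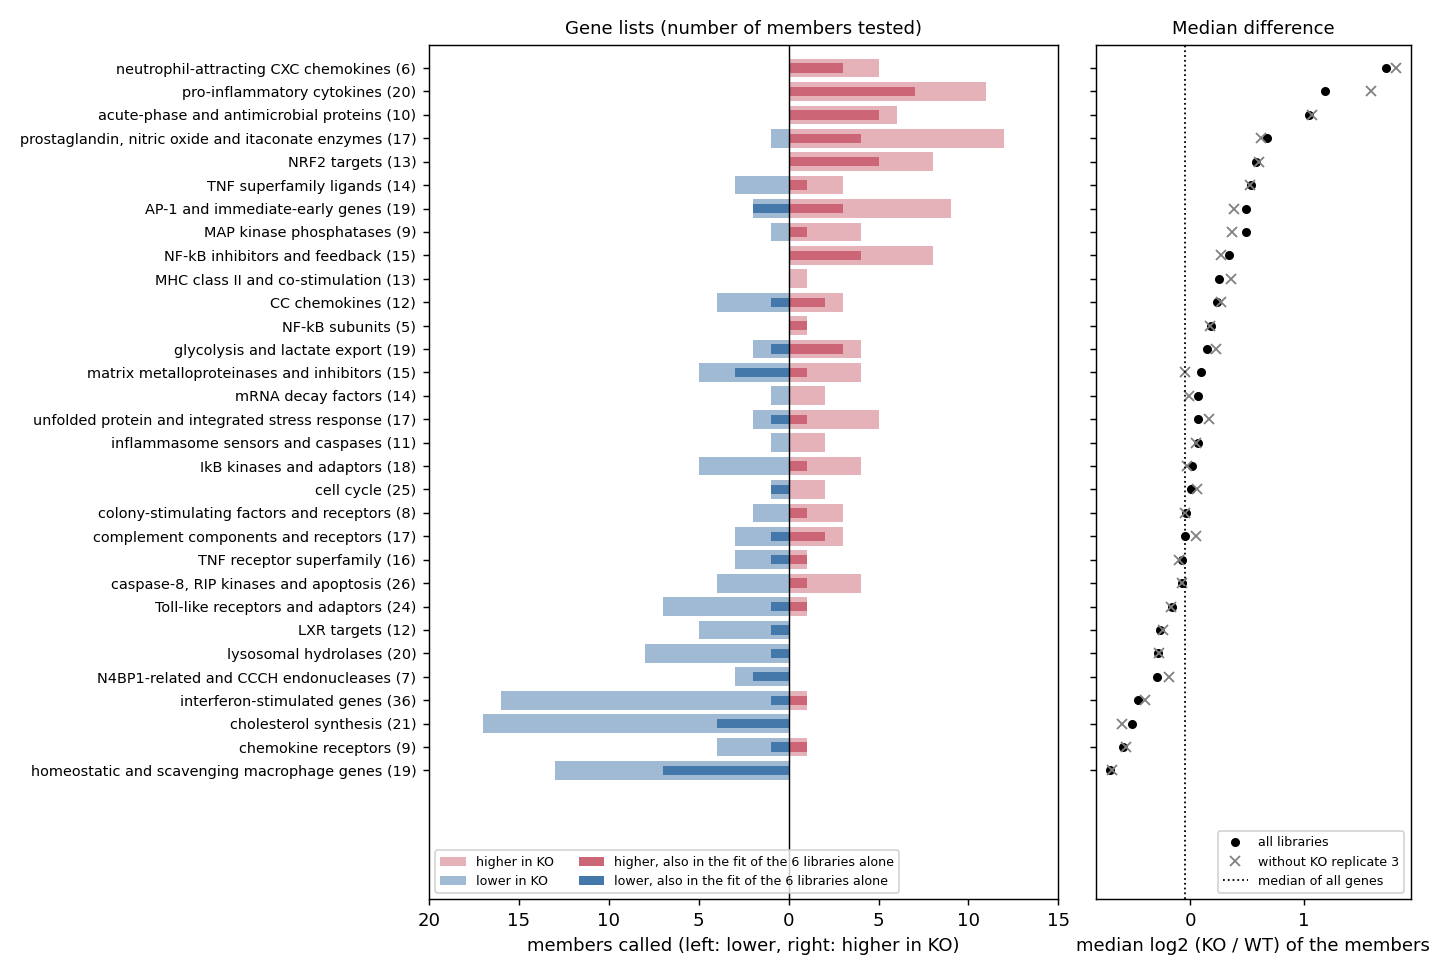
Gene lists of at least 5 tested members, with the lists of markers of cell types left out, ordered by their median: members called lower (left) or higher (right) in KO in pale bars and those also called in the fit of the 6 libraries alone in dark bars (left panel), and the median log2 difference with and without KO replicate 3 beside that of all genes, -0.05 (right panel). Neutrophil-attracting chemokines stand at the top, with 5 of 6 higher, and, of the lists drawn, homeostatic macrophage genes at the bottom, with 13 of 19 lower.

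Genes of resting and scavenging macrophages were lower. Of 19 tested members 13 were lower and none higher, with a median log2 difference of -0.70, and 7 were lower in the fit of the 6 libraries alone. Maf, a transcription factor of resident macrophages, was at 330.4, 474 and 374 CPM in WT and 178, 156 and 155 CPM in KO libraries, with a log2 difference of -1.27 ± 0.15 (edgeR adjusted p = 1.55e-08). Mrc1, encoding the mannose receptor CD206, was at 256, 310.4 and 294 CPM in WT and 135, 148 and 161 CPM in KO libraries, with a log2 difference of -0.96 ± 0.12 (edgeR adjusted p = 2.62e-08). No KO library reached the lowest WT library for either gene. Pparg, encoding a nuclear receptor of lipid handling, was lower by -1.96 ± 0.30 (edgeR adjusted p = 4.47e-06) but missed the threshold in the fit of the 6 libraries alone (edgeR adjusted p = 0.126; 3.67e-34 to 0.126 over the alternatives), with 3.68, 5.75 and 0.811 CPM in the KO libraries. Gas6, a ligand of the receptors that clear dead cells, was lower by -0.75 ± 0.13 (edgeR adjusted p = 1.67e-05) and likewise missed it there (edgeR adjusted p = 0.091; 3.19e-10 to 0.091 over the alternatives).

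Fcgr1, encoding the high-affinity IgG receptor CD64 and one of the markers that define macrophages, was at 350.3, 478 and 350.3 CPM in WT and 117, 117 and 118 CPM in KO libraries, with a log2 difference of -1.74 ± 0.16 (edgeR adjusted p = 1.72e-10). Of 10 core macrophage markers it was among 5 that were lower, with 1 higher, and their summed level was 26200 to 27010 CPM in KO and 28130 to 31530 CPM in WT libraries. Cd14, the co-receptor of TLR2 and TLR4, was the higher one, at 3004, 2596 and 2809 CPM in WT and 3933, 4244 and 3931 CPM in KO libraries. It differed by 0.53 ± 0.10 on the log2 scale (edgeR adjusted p = 8.26e-05). Tlr4 was lower, at 98.5, 109.8 and 104 CPM in WT and 76.9, 53.5 and 62.9 CPM in KO libraries, with a log2 difference of -0.69 ± 0.13 (edgeR adjusted p = 6.88e-05). Of the 24 Toll-like receptors and adaptors, Cd14 among them, 7 were lower, 1 of them also in the fit of the 6 libraries alone. Of 20 lysosomal genes 8 were lower and none higher, 1 also in that fit. That gene was Lipa, encoding the lysosomal acid lipase, at 1118, 1076 and 1034 CPM in WT and 718, 657 and 798 CPM in KO libraries, with a log2 difference of -0.57 ± 0.10 (edgeR adjusted p = 6.23e-05). In bulk samples fewer cells of a type and less RNA per cell cannot be told apart.

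Cholesterol synthesis was lower as a group of small differences. Of 21 tested genes 17 were lower and none higher, with a median log2 difference of -0.51, and 16 were lower without KO replicate 3 but 4 in the fit of the 6 libraries alone. Dhcr7, which makes cholesterol from its last precursor, was at 23.3, 20.5 and 21.7 CPM in WT and 8.53, 10.4 and 8.92 CPM in KO libraries. Its log2 difference was -1.23 ± 0.11 (edgeR adjusted p = 8.53e-11). Lss, encoding lanosterol synthase, was at 118, 114 and 118 CPM in WT and 60.01, 66.6 and 83.9 CPM in KO libraries, with a log2 difference of -0.73 ± 0.14 (edgeR adjusted p = 7.95e-05). WT and KO libraries did not overlap for either gene. Sqle, encoding squalene epoxidase, was lower by -0.73 ± 0.13 (edgeR adjusted p = 2.95e-05) and missed the threshold in the fit of the 6 libraries alone (edgeR adjusted p = 0.0623; 4.98e-10 to 0.0623 over the alternatives). Scd2, a fatty acid desaturase, was at 213, 275 and 252 CPM in WT and 120.2, 109.5 and 119 CPM in KO libraries. It differed by -1.08 ± 0.25 on the log2 scale (edgeR adjusted p = 0.00109).

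Interferon-stimulated genes were less certain. Of 36 tested members 16 were lower and 1 higher, but without KO replicate 3 the count was 9 lower and none higher, and in the fit of the 6 libraries alone 1 lower and 1 higher. Rsad2, encoding the antiviral protein viperin, was at 541, 1448 and 894 CPM in WT and 463, 210.5 and 244 CPM in KO libraries, with a log2 difference of -1.65 ± 0.37 (edgeR adjusted p = 0.00114). It did not pass in the fit of the 6 libraries alone (edgeR adjusted p = 0.0592) or with voom (limma adjusted p = 0.0673, the highest of a range from 1.63e-53 over the alternatives). WT replicate 2 was the highest library for Rsad2 and for Ifit2, another antiviral gene, which was at 355, 852 and 514 CPM in WT and 271, 111 and 156 CPM in KO libraries. The log2 difference of Ifit2 was -1.68 ± 0.36 (edgeR adjusted p = 0.000656) and missed the threshold in the same fit (edgeR adjusted p = 0.0513; 8.01e-54 to 0.0513 over the alternatives). Without WT replicate 2 the log2 differences of Rsad2 and Ifit2 were -1.24 and -1.28 (edgeR adjusted p = 0.0237 and 0.0147).

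The largest decreases divided by how KO replicate 3 behaved. Hip1, encoding an adaptor of endocytosis, was at 17.4, 25.8 and 23.5 CPM in WT and 3.72, 3.93 and 4.30 CPM in KO libraries, with a log2 difference of -2.48 ± 0.22 (edgeR adjusted p = 3.47e-11). Mtss1, which shapes membranes, was at 84.1, 77.9 and 82.8 CPM in WT and 15.8, 21.8 and 11.9 CPM in KO libraries, with a log2 difference of -2.31 ± 0.23 (edgeR adjusted p = 7.61e-10). Sesn1, a stress-induced inhibitor of the kinase mTORC1, was at 50.4, 56.9 and 46.8 CPM in WT and 12.7, 17.9 and 6.17 CPM in KO libraries. It differed by -2.06 ± 0.28 on the log2 scale (edgeR adjusted p = 4.72e-07). All 3 KO libraries lay below the WT libraries for each. By contrast Rnf144b, Nxpe5, Dio2, Tm4sf19 and Tanc2 had no count in KO replicate 3. Their log2 differences were -3.13, -2.46, -2.10, -1.92 and -1.88 with all libraries and -2.57, -1.89, -1.53, -1.35 and -1.30 without that library (highest edgeR adjusted p = 0.00192 in that fit). None of these 5 passed in the fit of the 6 libraries alone (lowest edgeR adjusted p = 0.162, highest 0.428, the highest values over their alternatives). Dio2 also missed the threshold with voom (limma adjusted p = 0.05115).

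Markers of other cells were read beside these groups, with sums, and the levels of Pf4 and Pdgfrb, in CPM of the library total without TMM scaling. The 12 markers of B and plasma cells summed to 126.6 to 135.1 CPM in KO and 19.5 to 89.6 CPM in WT libraries. Of the 12 tested 3 were higher in KO and none lower, with a list median of 0.17, and -0.14 without KO replicate 3. Among those that did not pass, Igkc lay higher in every KO library, while the groups overlapped for Ighm and Mzb1. Jchain, which joins secreted antibodies, was at 4.00, 0.576 and 0.957 CPM in WT and 14.1, 12.6 and 14.4 CPM in KO libraries, with a log2 difference of 2.91 ± 0.76 (edgeR adjusted p = 0.00444). Igha encodes the constant part of antibodies of class A and was at 12.4, 0.329 and 3.33 CPM in WT and 56.05, 43.2 and 43.03 CPM in KO libraries, with a difference of 3.16 ± 1.00 on the log2 scale (edgeR adjusted p = 0.0193). The call for Igha was lost without WT replicate 2 or WT replicate 3 (edgeR adjusted p = 0.0931 and 0.0905; 8.49e-90 to 0.0931 over the alternatives). Both genes differed already without Pam3. In untreated WT and KO libraries Igha averaged 3.64 and 33.4 CPM and Jchain 0.670 and 8.06 CPM. Reads of immunoglobulin genes can fall on near-identical copies, so the level of 1 such gene is uncertain. Neutrophil markers summed to 207.8 to 219.2 CPM in KO and 250.2 to 306.3 CPM in WT libraries with Ly6g at 0 in all 6, and T and NK cell markers to at most 16.0 CPM with Cd3d, Trac and Trbc1 at 0 in all 6. Monocyte markers summed to 105.2 to 181.1 CPM in KO and 90.8 to 100.6 CPM in WT libraries. Much of the KO sum was Vcan, for which the groups overlapped. Of 7 tested monocyte markers 2 were higher and 1 lower, with a list median of 0.54. In the fit of the 6 libraries alone 1 was higher and none lower. Megakaryocyte markers summed to 343.2 to 506 CPM in KO and 294.5 to 335.9 CPM in WT libraries. Nearly all of the megakaryocyte sum was Pf4, at 311.4, 290.2 and 330.7 CPM in WT and 355.3, 500.7 and 340.1 CPM in KO libraries, and none of the other 4 tested markers passed (list median -0.69). Stromal markers overlapped in sum, at 38.6 to 79.0 and 50.04 to 54.4 CPM, and of 10 tested 4 were lower (Col1a1, Col1a2, Col3a1 and Sparc) and 1 higher (Pdgfrb), with a list median of -0.94. In the fit of the 6 libraries alone 1 was lower and 1 higher, and with voom 2 and 1. Pdgfrb made up much of the KO sum, at 10.8, 14.2 and 12.9 CPM in WT and 52.05, 24.0 and 24.8 CPM in KO libraries. Col1a2, encoding a collagen chain, was at 6.46, 6.83 and 7.68 CPM in WT and 1.68, 2.95 and 1.94 CPM in KO libraries (log2 difference -1.66 ± 0.21, edgeR adjusted p = 7.99e-08). Of 11 tested neutrophil markers 1 was higher and 2 lower, with a list median of -0.96. The part of these cells in the differences above was not tested.

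Genes that Pam3 raised in WT cells were more often higher than lower in KO cells at 8 h, and genes that it lowered more often lower. Genes were sorted by WT libraries that the comparison at 8 h does not use, those at 6 h of Pam3 and untreated, with a change of at least 1 on the log2 scale and an edgeR adjusted p under 0.05, a threshold that 26.8% of genes passed upward and 26.7% downward at any size. Of 1711 genes that Pam3 raised in WT cells 509 were higher in KO at 8 h (29.7%) and 128 lower (7.48%), with a median log2 difference of 0.20. Of 1944 genes that Pam3 lowered 43 were higher (2.21%) and 615 lower (31.6%), with a median of -0.52. Among the other 11315 genes 10.3% were higher and 9.90% lower, with a median of -0.03. In the fit of the 6 libraries alone the raised genes gave 185 higher and 24 lower and the lowered genes 1 higher and 93 lower, and without KO replicate 3 the counts were 438 and 87, and 17 and 492. Cxcl3, Il6, Ptgs2 and Slc7a11 are examples of raised genes that stood higher in KO, and Hip1, Mtss1 and Sesn1 of lowered genes that stood lower. N4bp1 was itself raised by Pam3 in WT cells. Rhob, encoding a small GTPase, ran against the trend, lowered by Pam3 in WT cells but higher in KO at 8 h, at 36.2, 25.02 and 31.4 CPM in WT and 65.3, 91.2 and 77.2 CPM in KO libraries (log2 difference 1.33 ± 0.15, edgeR adjusted p = 3.13e-09). Kctd12 also ran against it, raised by Pam3 in WT cells and lower in KO, at 719.8, 1025 and 800.1 CPM in WT and 482, 380.2 and 425 CPM in KO libraries (log2 difference -0.98 ± 0.15, edgeR adjusted p = 2.09e-06).

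**Figure D4:**
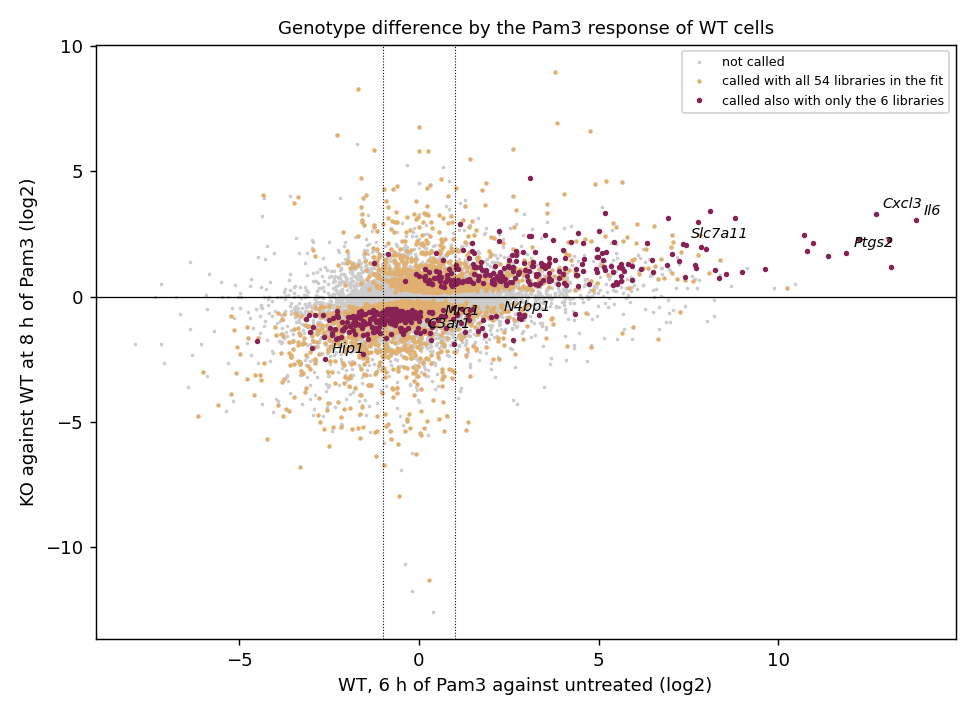
Each point is 1 of the 14970 genes, placed by the Pam3 response of WT cells at 6 h (horizontal axis, log2, dotted lines at -1 and 1) and by the difference between KO and WT at 8 h (vertical axis, log2). Genes called in the fit of the 6 libraries alone lie mostly above 0 on the right, with 185 raised genes higher in KO, and below 0 on the left, with 93 lowered genes lower.

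The number of genes called between genotypes was 132 in untreated cells (0.882%), 214 at 2 h (1.43%), 962 at 4 h (6.43%), 1196 at 6 h (7.99%) and 3577 at 8 h (23.9%) of Pam3, from libraries that the times do not share. Whether these libraries share a source of cells was not tested. At 8 h the count was 2600 without KO replicate 3, 1340 with voom and 451 with the 6 libraries alone. Such counts are not given for the other times, so the size of the step from 6 to 8 h is uncertain. Higher genes were 0.514%, 0.655%, 3.33% and 3.90% of those tested in untreated cells and at 2, 4 and 6 h, and lower genes 0.367%, 0.775%, 3.09% and 4.09%. The genotype difference of C3ar1 was -0.13 ± 0.10 in untreated cells and -0.08 ± 0.10, -0.44 ± 0.10, -0.80 ± 0.10 and -1.47 ± 0.10 at 2, 4, 6 and 8 h. Fcgr1 went from -0.23 ± 0.16 through -0.38 ± 0.16, -0.86 ± 0.16 and -1.25 ± 0.16 to -1.74 ± 0.16 over the same times. The values of both lay lower at each later time from 2 h on, while Cxcl3 had most of its difference by 4 h, with 0.74 ± 0.19, 2.68 ± 0.19, 2.60 ± 0.19 and 3.31 ± 0.19 at 2, 4, 6 and 8 h. Ptgs2 differed by 0.23 ± 0.22, 0.46 ± 0.22, 0.85 ± 0.22 and 1.74 ± 0.22 at these times and first passed at 6 h (edgeR adjusted p = 0.785, 0.224 and 0.00938 at 2, 4 and 6 h). Mrc1 was lower in KO already without Pam3, by -0.54 ± 0.11 (edgeR adjusted p = 0.00736).

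**Figure D5:**
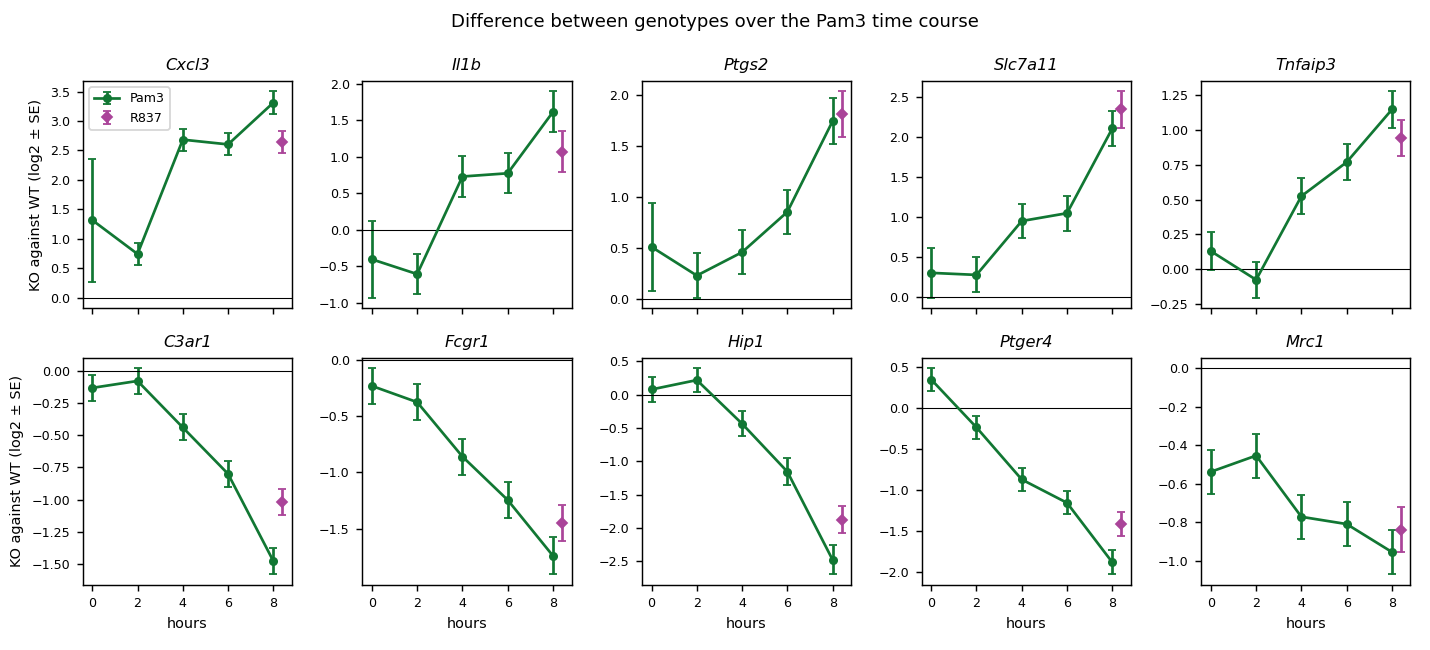
Difference between KO and WT (vertical axis, log2 with SE, a separate scale for each gene) of 10 genes in untreated cells (0 h) and at 2, 4, 6 and 8 h of Pam3 (horizontal axis, green), with R837 at 8 h as a purple diamond drawn just right of 8 h. The differences of C3ar1 and Fcgr1 reach -1.47 and -1.74 at 8 h of Pam3, and that of Cxcl3 reaches 3.31.

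The change of the genotype difference between untreated cells and 8 h of Pam3 passed the test itself for 669 genes (4.47%), 257 with a more positive (1.72%) and 412 with a more negative difference at 8 h (2.75%). Ptger4, named above, had a genotype difference of 0.35 ± 0.14 in untreated cells and -1.88 ± 0.15 at 8 h, a change of -2.22 ± 0.20 (edgeR adjusted p = 4.28e-10). Hip1 changed from 0.08 ± 0.18 to -2.48 ± 0.22, by -2.55 ± 0.28 (edgeR adjusted p = 8.36e-08). P2rx7, encoding the ATP-gated channel that triggers the inflammasome, was at 19.4, 20.7 and 24.8 CPM in WT and 7.97, 7.92 and 6.31 CPM in KO libraries at 8 h, and its difference changed by -1.51 ± 0.17 from untreated cells (edgeR adjusted p = 8.36e-08). Bmp1, encoding a procollagen protease, was at 10.4, 11.4 and 11.7 CPM in WT and 46.6, 27.5 and 42.4 CPM in KO libraries at 8 h, with a change of 3.01 ± 0.35 (edgeR adjusted p = 1.81e-07). The count was 1476 without KO replicate 1 and 1254 without KO replicate 2 at 8 h, both fits in which KO replicate 3 is 1 of 2 KO libraries, and 233 with the 12 libraries compared fitted alone.

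Against 6 h of Pam3 the difference passed the test for 11 genes (0.0735%), 2 more positive (0.0134%) and 9 more negative at 8 h (0.0601%). This count is not settled by the data: it ran from 3 without WT Pam3 6 h replicate 1 to 500 without KO Pam3 8 h replicate 2, was 405 without KO Pam3 8 h replicate 1 and 7 without its replicate 3, and also moved over 1.5 times without KO Pam3 6 h replicates 1 and 2 (36 and 4), WT Pam3 6 h replicate 3 (6) and WT Pam3 8 h replicates 1 and 3 (17 and 5). With those 12 libraries fitted alone no gene passed in edgeR, with 468 at an unadjusted p under 0.05, while DESeq2 called 91 and limma's voom with quality weights 4 with all 54. Blnk, encoding an adaptor of antigen receptor signalling in B cells, had a genotype difference of 0.60 ± 0.09 at 6 h and -0.17 ± 0.09 at 8 h, a change of -0.77 ± 0.12 (edgeR adjusted p = 0.0016).

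R837 acts through TLR7, and its libraries are not those of Pam3. Chromosome Y transcripts were at 0.386, 207.8 and 65.6 CPM in WT replicates 1 to 3 at 8 h of Pam3. At 8 h of R837 they were at 179.7, 64.0 and 0.728 CPM. Whether the libraries of the ligands share a source of cells was not tested, so the shared calls below are not known to be independent. At 8 h of R837, 1074 genes were higher in KO (7.17%) and 1308 lower (8.74%). Of the 1714 genes higher at 8 h of Pam3, 631 were also higher with R837, 36.8% of the Pam3 list and 58.8% of the R837 list. Of the 1863 lower genes 802 were also lower, 43.0% and 61.3% of the lists, and 5 genes had opposite calls. Il6 differed by 2.86 ± 0.30 with R837 and 3.06 ± 0.30 with Pam3, Slc7a11 by 2.35 ± 0.23 and 2.11 ± 0.22, and Fcgr1 by -1.45 ± 0.16 and -1.74 ± 0.16. The difference between the ligands passed the test for 30 genes (0.2%), 16 more positive (0.107%) and 14 more negative with Pam3 (0.0935%). Kctd12 differed by -0.98 ± 0.15 with Pam3 and 0.23 ± 0.14 with R837 (difference -1.22 ± 0.21, edgeR adjusted p = 0.00215). Rin2, encoding an activator of the endosomal GTPase Rab5, was at 148, 220.4 and 179 CPM in WT and 77.2, 66.5 and 57.6 CPM in KO libraries with Pam3, and its genotype difference was -1.44 ± 0.15 with Pam3 and -0.22 ± 0.15 with R837 (difference -1.23 ± 0.21, edgeR adjusted p = 0.00215). The count was 612 and 218 without KO Pam3 8 h replicates 1 and 2, 13 and 12 without KO R837 8 h replicates 1 and 3, 12 and 17 without WT Pam3 8 h replicates 2 and 3, and 89, 9 and 18 without WT R837 8 h replicates 1, 2 and 3. With the 12 libraries of these groups fitted alone no gene passed in edgeR, with 683 at an unadjusted p under 0.05, while DESeq2 called 155 with all 54.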

How the data were processed

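Each RNA-seq library of the series had 1 deposited table of counts and RPKM values per gene. Reads were aligned with GSNAP to GRCm38, per the submitters' processing notes, while the counting tool, its strand setting and all versions are missing from those notes. The counts deposited by the authors are whole numbers of reads per gene and were used in every test. The RPKM values deposited by the authors were not tested. Gene positions are from GENCODE M21 (GRCm38) and promoter windows from RefSeq (GRCm38.p6).

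Genes were kept by edgeR's filterByExpr (minimum count 10, minimum total 15), counts were scaled by TMM, and 1 model with 18 groups over 54 libraries was fitted with edgeR 4.0.16 (R 4.3.3) by its quasi-likelihood test, with Benjamini-Hochberg adjustment and a threshold of 0.05. CPM are counts-per-million after TMM, except for marker sums, Pf4, Pdgfrb, Xist, chromosome Y transcripts and the ranges of genes with no count in KO replicate 3, which are per library total. A difference between conditions was tested as an interaction contrast. The SE given after ± was derived from the edgeR test, as the size of the log2 difference divided by the square root of its F statistic. It is not an SE that the fit itself reports. Alternatives were RLE size factors, no filter, a stricter filter (minimum count 50), DESeq2 1.42.0, limma 3.58.1 voom with quality weights, the libraries of the compared groups fitted alone, a replicate block, and leaving out each library in turn. Counts per gene list in the fit of the 6 libraries alone were added after seeing the data. The genes, lists and comparison were chosen with earlier results of these data known. Named were N4bp1, the 15 largest increases and decreases that passed with and without KO replicate 3 with a mean of at least 5 CPM and no overlap between groups, a set of cytokine and NF-kB genes, up to 4 members per list by p-value, and the 8 smallest p-values of each difference between conditions. Some genes that this rule names are not reported here. The labels do not say whether replicates are separate mice, so p-values measure the spread between libraries. On simulated counts of 14078 genes for this comparison, the test recovered 83.0% and 85.4% of genes changed by -1 and 1 on the log2 scale and called 0.108% of unchanged genes. The simulated counts had the same spread setting for every gene and library and no missing counts like those of KO replicate 3. These rates therefore do not give the share of false calls in the real libraries.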

Additional observations from a re-analysis of the deposited data

Results flagged for a closer look

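Tests of whether the genotype difference itself differed between conditions picked out the following results, all with edgeR's interaction contrasts and given as values only. They treat libraries of different conditions as independent. Between 8 h of Pam3 and untreated cells 669 genes passed. The difference (KO minus WT) was more negative at 8 h for Ptger4 by -2.22, for C3ar1 by -1.34, for Hip1 by -2.55, for P2rx7 by -1.51, for the chemokine receptor gene Ccr3 by -1.20 and for the splicing regulator Mbnl1 by -0.88 on the log2 scale. It was more positive for Bmp1 by 3.01 and for Rhob by 1.63. All 8 passed under each alternative run.

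Between 8 and 6 h of Pam3, 11 genes passed. The log2 change was -0.77 for Blnk, -0.94 for Steap3, -0.86 for Celf2, -0.93 for Tpcn1, -0.84 for P2rx7, -0.84 for Fgd2 and -0.67 for C3ar1, and 1.30 for Rdh10, which makes retinal from retinol. None of these 8 passed with the 12 libraries of these groups fitted alone (edgeR adjusted p = 1 for each). Rdh10, P2rx7 and C3ar1 also did not pass without KO Pam3 8 h replicate 3 (edgeR adjusted p = 0.106, 0.117 and 0.0635). Of 19 alternatives, P2rx7 missed the threshold in 9, Fgd2 in 10 and C3ar1 in 11.

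Between Pam3 and R837 at 8 h, 30 genes passed. The log2 difference between ligands was -0.65 for Mbnl1, -1.22 for Kctd12, -1.23 for Rin2, -1.25 for Cd300e and -0.86 for Nfkbiz, which encodes an NF-kB cofactor, and it was 1.64 for Klf10, 1.24 for Rarg and 0.84 for Ube2l6. None of these 8 passed with the 12 libraries of these groups fitted alone, and Ube2l6 also did not pass without WT R837 8 h replicate 3 (edgeR adjusted p = 0.052).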

How the results depend on the processing

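The count of 3577 genes for KO against WT at 8 h of Pam3 fell to 1340 with limma's voom and quality weights (743 higher, 597 lower) and to 451 with the 6 libraries fitted alone (226 and 225), and leaving out 1 library gave 2374 to 4762. For the difference from untreated cells the count of 669 became 1063 with no filter and 233 with the compared libraries alone, and leaving out 1 library gave 475 to 1476. For the difference from 6 h of Pam3 the count of 11 became 91 with DESeq2, 4 with voom, 309 with no filter and 0 with the compared libraries alone (edgeR, 468 at an unadjusted p under 0.05), and leaving out 1 library gave 3 to 500. For the difference from R837 the count of 30 became 155 with DESeq2, 312 with no filter and 0 with the compared libraries alone (edgeR, 683 at an unadjusted p under 0.05), and leaving out 1 library gave 9 to 612. The cause of these moves was not tested. The WT response at 6 h, 8011 genes, stayed within 1.5 times under each alternative. Replicate numbers did not pair the libraries: deviations from the group means correlated at -0.331, -0.339 and 0.0531 between KO and WT libraries of the same number. Between libraries of different numbers the values ran from -0.151 to 0.402, the highest for KO replicate 2 with WT replicate 1. A pairing under other numbers was not tested. In each of 9 conditions 1 WT library had chromosome Y transcripts at 163 to 207.8 CPM and Xist at 17.0 to 26.8 CPM. Its replicate number was 1 in untreated cells and with R837, and 2 with Pam3. Another WT library of each condition had chromosome Y transcripts at 57.96 to 78.4 CPM. The remaining WT library had them at 0.386 to 1.38 CPM, with Igha at 9.36 to 15.1 CPM of the library total. The same 3 profiles thus recurred in the WT libraries of every condition. Their replicate numbers were the same at 6 and 8 h of Pam3 but others in untreated cells and with R837. Whether libraries of different conditions share a source of cells was not tested, and the interaction tests do not account for it. The replicate block was by number for KO against WT at 8 h and by number within genotype for the other results. Neither follows the WT profiles across untreated cells, Pam3 and R837. With a replicate block the counts were 3628, 811, 24 and 68 in the order above. Of 105 named genes called at 8 h, 85 passed under each of 13 alternatives and 20 missed the threshold under at least 1, while Casp8 passed only under some. No called gene changed direction, while Il10, which was not called, ran from -0.26 to 0.20 on the log2 scale. With no filter edgeR gave far smaller adjusted p-values for some genes (8.49e-90 for Igha, against 0.0193 with the filter), and the cause was not tested. The missing counts of KO replicate 3 below about 5 CPM limit what can be said of weakly expressed genes.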
